A study of Danio rerio with 14 samples.

Results

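The genes described here are 6 genes of bone and type I collagen matrix, picked by Ensembl identifier from the 32520 genes of the zebrafish count tables. They are *col1a1a* (ENSDARG00000012405), *col1a2* (ENSDARG00000020007), *sparc* (ENSDARG00000019353), *runx2b* (ENSDARG00000059233), *sp7* (ENSDARG00000019516) and *col10a1a* (ENSDARG00000054753). RNA-Seq had been performed on cells sorted from dissected heads at 72 hours postfertilization (hpf), with 20 to 25 heads pooled in each sample. Mutant samples came from *psmb1* hi2939 larvae, in which a retrovirus sits in the first intron of a gene for a proteasome subunit, and the other samples pooled wild-type with heterozygous larvae. From larvae with the *sox10:kaede* reporter, 7000 Kaede+ cells (sox10+) were sorted per sample, and from larvae with *mylz2:mCherry*, 1500 mCherry+ muscle cells (mylz2+). Each cell type had 3 mutant and 4 wild-type/heterozygous libraries, and the question was how loss of *psmb1* function changed expression in these cells.

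Several features of the material limit what the groups stand for. The *sox10:kaede* line also labels cells that do not derive from the cranial neural crest, such as those of the ear. The samples are labelled as biological replicates, each a pool of heads, so p-values measure the spread between these pools and not between single larvae. The study used clutch-matched siblings, but which clutch each sample came from is not given. A sorted sample is a mixture, and fewer cells of a type and less RNA per cell cannot be told apart in any comparison below.

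Type I collagen is the main fibrillar protein of bone and is also laid down in tendon, skin and the connective tissue around muscle. Its chains are folded in the endoplasmic reticulum, trimmed outside the cell and assembled into fibrils, and SPARC (osteonectin) is a secreted protein that binds collagen and is abundant in bone matrix. Osteoblasts are specified by Runx2 and then require Sp7 (Osterix), both of them transcription factors. Type X collagen marks hypertrophic chondrocytes in mammals, and in zebrafish *col10a1a* is also used as an early marker of osteoblasts. In the larval head the first bones form in the dermis and around the cartilages, close to the cells that the *sox10* reporter marks.

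The counts of a library summed to 59318933 to 72034939 in sox10+ mutants and 54824619 to 62057318 in sox10+ wild-type/heterozygous samples. They summed to 83947537 to 103563447 in mylz2+ mutants and 69357630 to 78521766 in mylz2+ wild-type/heterozygous samples. Levels are given as CPM, a gene's count relative to the total of its library, after TMM scaling within each cell type unless another scale is named. A count of 3, taken as the floor of detection, was worth 0.029 to 0.0547 CPM on library totals. The floor covers counting error only, since amplified reads are not independent molecules.

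Of the 2 reporter genes only *sox10* was checked, because the gene of the *mylz2* reporter could not be matched by name. The 11 other skeletal muscle markers matched summed to 50200 to 67200 CPM of library totals in mylz2+ mutants. They summed to 72800 to 77400 CPM in mylz2+ wild-type/heterozygous samples. In sox10+ cells the sums were 27 to 329 CPM in mutants and 191 to 785 CPM in wild-type/heterozygous samples. *sox10* itself had a mean of 943 CPM in sox10+ mutants and 1230 CPM in sox10+ wild-type/heterozygous samples, and 2.37 and 2.62 CPM in mylz2+ mutants and mylz2+ wild-type/heterozygous samples. In mylz2+ cells *psmb1* was lower in mutants, at 68.1 to 85.1 CPM against 124 to 164 CPM in wild-type/heterozygous samples (adjusted p = 0.00137 in edgeR's quasi-likelihood test). Every adjusted p below comes from that test, adjusted by Benjamini and Hochberg's method over all genes tested, unless DESeq2 or a permutation is named. In sox10+ cells it was not, with 69.2 to 90.5 CPM in the libraries labelled mutant and 57.6 to 92.4 CPM in the wild-type/heterozygous ones (adjusted p = 0.958). Mutants of this allele still make full-length *psmb1* transcript, at a reduced level in the study's qRT-PCR, which did not use sorted cells. In sox10+ cells the genotypes of the samples are therefore taken here from their labels, and no other gene was used here to check them.

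In sox10+ cells the type I collagen genes had lower estimates in the libraries labelled mutant, and *col10a1a* had the lowest ratio of the 6 genes, but 0 of the 6 passed an adjusted p of 0.05. Among all 21476 genes tested, 3.69% passed in either direction. Before adjustment 4 of the 6 had a p under 0.05, all lower in the mutants (*col1a1a*, *col1a2*, *sparc* and *col10a1a*), against 16.7% of all genes in either direction. DESeq2's Wald test, run as an alternative, called 3 of them lower, and it called 11.3% of all genes (6.2% lower). For 3 of the 6 genes all mutant values lay on one side of all wild-type/heterozygous values, and the same was true of 18.8% of all genes.

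*col1a1a*, which encodes an alpha chain of type I collagen, had 1173, 1033 and 1030 CPM in the 3 sox10+ libraries labelled mutant. The 4 wild-type/heterozygous libraries had 1719, 1718, 1572 and 1375 CPM. Every mutant library lay below every wild-type/heterozygous one. On the log2 scale the change of mutant over wild-type/heterozygous was -0.56 ± 0.14 (SE; 95% interval -0.89 to -0.24), or 1.48-fold lower, with an adjusted p of 0.0653. With DESeq2 the adjusted p was 0.000239.

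*col1a2*, the gene of the partner chain, had 1375, 1429 and 1205 CPM in the libraries labelled mutant. It had 2097, 2002, 2020 and 1606 CPM in wild-type/heterozygous libraries. Again the genotypes were apart, and replicate 4 of the wild-type/heterozygous samples was the lowest of its group for both chains. The log2 fold change was -0.53 ± 0.15 (SE; 95% interval -0.87 to -0.19), with an adjusted p of 0.0896 and, in DESeq2, 0.00219. Without that replicate 4, when 4.81% of all genes were called, 3 members passed the threshold in edgeR: *col1a1a* (adjusted p = 0.0305), *col1a2* (adjusted p = 0.0343) and *col10a1a* (adjusted p = 0.0429).

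*sparc* was less clearly separated. Its level was 1436, 1233 and 1417 CPM in the libraries labelled mutant, against 1786, 1421, 1907 and 2239 CPM in the wild-type/heterozygous libraries. Replicate 2 of the wild-type/heterozygous samples fell among the mutants, so the groups overlapped. Its estimated log2 fold change was -0.43 ± 0.17 (SE; 95% interval -0.82 to -0.043), with an adjusted p of 0.243.

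For the transcription factors, the genotypes' *runx2b* values differed by less than the spread between replicates. It had 22.3, 14.5 and 27.8 CPM in the libraries labelled mutant and 46.9, 18.9, 15.7 and 30.3 CPM in the wild-type/heterozygous libraries. The ranges overlapped, and the highest value, in wild-type/heterozygous replicate 1, was 46.9 CPM. Its log2 fold change was -0.38 ± 0.40 (SE; 95% interval -1.28 to 0.52; adjusted p = 0.762).

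*sp7* was scarce and uneven. It had 288, 412 and 5 counts in mutant replicates 1, 3 and 4, against 145, 185, 160 and 0 counts in wild-type/heterozygous replicates 1 to 4. On the CPM scale this was 4.47, 5.98 and 0.069 CPM in mutants and 2.88, 2.94, 2.75 and 0 CPM in wild-type/heterozygous samples. Replicate 4 was near or at 0 in both genotypes, and the other 5 libraries held 145 counts or more. The fitted log2 fold change of 0.71 ± 1.55 (SE; 95% interval -2.76 to 4.18; adjusted p = 0.905) covers both directions.

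*col10a1a* had 121, 245 and 280 CPM in sox10+ libraries labelled mutant. In wild-type/heterozygous libraries it had 1225, 433, 695 and 339 CPM. All mutant values lay below all wild-type/heterozygous values, although the closest pair, 280 and 339 CPM, was near, and the wild-type/heterozygous samples spread widely (CV 59%). The log2 fold change was -1.65 ± 0.45 (SE; 95% interval -2.66 to -0.63), 3.13-fold lower, with an adjusted p of 0.0836 in edgeR and 0.0018 in DESeq2. When genes with under 10 counts in any library were left out, *col10a1a* passed with an adjusted p of 0.0466, and 8.24% of all genes were called.

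**Figure D1:**
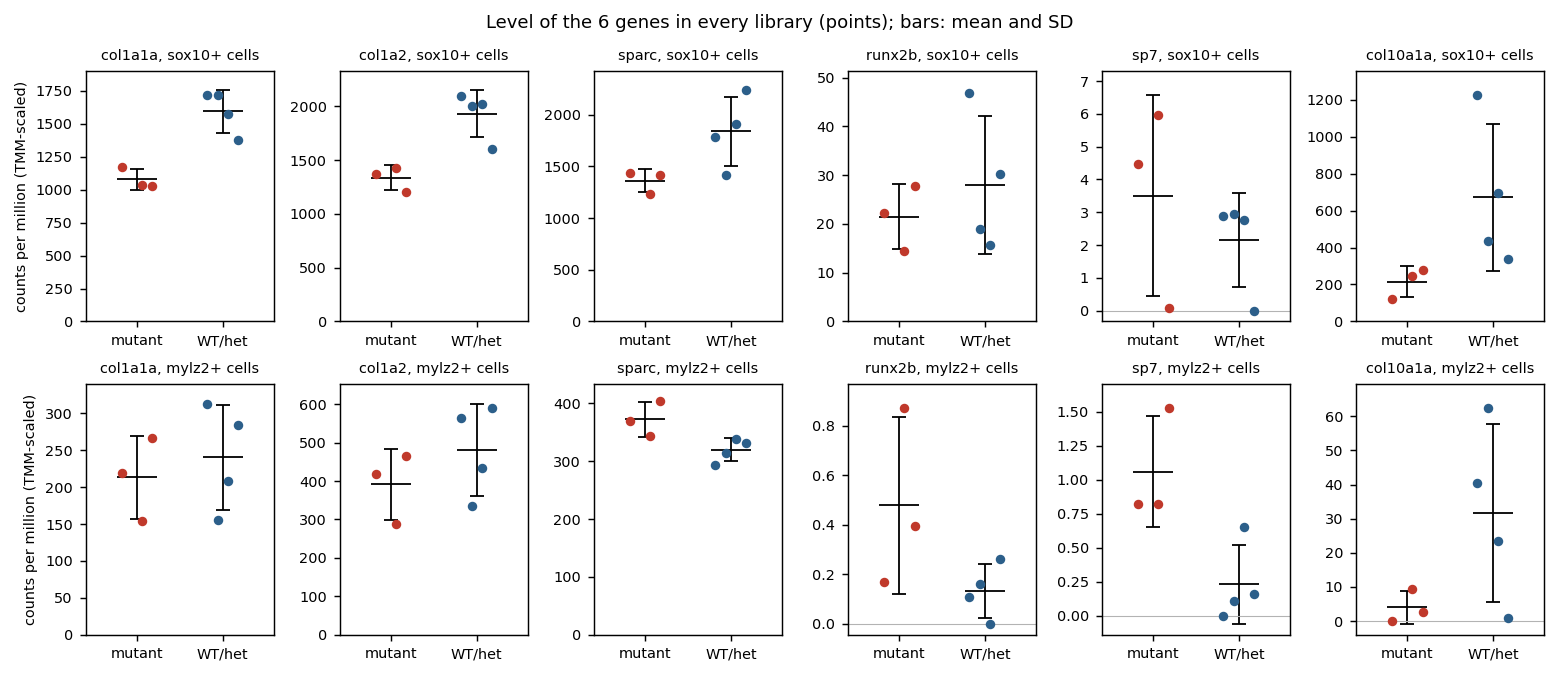
Level of each gene in CPM (vertical axis, TMM-scaled within the cell type) in each library (points), with mutants in red at left and wild-type/heterozygous (WT/het) samples in blue at right, and black bars for the mean and SD. The upper row shows sox10+ cells, where the mutants lay wholly below the wild-type/heterozygous samples for *col1a1a*, *col1a2* and *col10a1a*, and the lower row shows mylz2+ cells, where they lay wholly above for *sparc* and *sp7*.

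In mylz2+ cells 0 of the 6 genes passed the threshold, where 22.5% of 20413 genes did. None of the 6 had an unadjusted p under 0.05, against 33.1% of all genes. DESeq2 called 0 of the 6, and it called 27.5% of all genes. The genotypes did not overlap for 2 of the 6, *sparc* and *sp7*, and for 34.1% of all genes tested.

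The collagen chains overlapped between genotypes in muscle cells. *col1a1a* had 219, 154 and 267 CPM in mutants against 313, 156, 208 and 284 CPM in wild-type/heterozygous samples. *col1a2* had 419, 289 and 466 CPM in mutants against 564, 334, 434 and 591 CPM in wild-type/heterozygous samples. Mutant replicate 3 and wild-type/heterozygous replicate 2 were the lowest of their groups for both chains. The log2 fold changes were -0.17 ± 0.25 for *col1a1a* (adjusted p = 0.708) and -0.30 ± 0.22 for *col1a2* (adjusted p = 0.406), and both turned positive when libraries were scaled by their totals alone, to 0.19 and 0.072. That scaling moved the median of all genes in mylz2+ cells to 0.41, against 0.01 with TMM.

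*sparc* had 370, 343 and 404 CPM in mylz2+ mutants and 294, 314, 339 and 331 CPM in mylz2+ wild-type/heterozygous samples. The lowest mutant, at 343 CPM, stood just above the highest wild-type/heterozygous sample, at 339 CPM. The log2 fold change was 0.22 ± 0.11 (SE; 95% interval -0.017 to 0.46; adjusted p = 0.184). On library totals it was 0.61, with an adjusted p of 0.00132, beside the shift of 0.41 of all genes under that scaling.

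The osteoblast regulators had few counts in muscle cells. *sp7* had 83, 109 and 135 counts in mutants, against 0, 6, 45 and 11 counts in wild-type/heterozygous samples. Every mutant library held more *sp7* counts than any wild-type/heterozygous one. The fitted log2 fold change was 2.19 ± 1.21 (SE; 95% interval -0.50 to 4.88; adjusted p = 0.249). *runx2b* had 17, 115 and 35 counts in mutants and 8, 9, 0 and 18 counts in wild-type/heterozygous samples, which overlapped (adjusted p = 0.378).

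*col10a1a* varied widely between mylz2+ samples of a genotype, with means of 3.98 ± 4.83 CPM in mutants and 31.7 ± 26.1 CPM in wild-type/heterozygous samples (SD). It had 0, 1235 and 227 counts in mutants and 2923, 3483, 1600 and 58 counts in wild-type/heterozygous samples. Wild-type/heterozygous replicate 4 lay below 2 of the mutants, and the 0 counts of mutant replicate 1 allow a level of up to 0.0356 CPM. The fitted log2 fold change was -2.99 ± 1.78 (SE; 95% interval -7.29 to 1.32; adjusted p = 0.317).

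A model of all 14 libraries with a genotype by cell type term asked whether the mutation had a different effect in each cell type. The term was called for 0 of the 6 genes in edgeR and 0 in DESeq2, against 1.53% of 23232 genes in edgeR (1.02% higher and 0.508% lower). DESeq2 called it for 5.85% of all genes. Before adjustment, 2 of the 6 had a p under 0.05, against 14.1% of all genes. For *sparc* the effect in sox10+ cells minus that in mylz2+ cells was -0.65 ± 0.22 on the log2 scale (SE; adjusted p = 0.17), and on library totals it was -0.91 (adjusted p = 0.0259). That scaling moved the median of this term over all genes to -0.31, against -0.035 with TMM. For *runx2b* the difference of the effects was -2.21 ± 1.00 (SE; adjusted p = 0.333). For the collagen chains the difference of the effects was -0.38 ± 0.31 for *col1a1a* (adjusted p = 0.667) and -0.22 ± 0.28 for *col1a2* (adjusted p = 0.828), and neither difference was larger than its error allows to call.

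**Figure D2:**
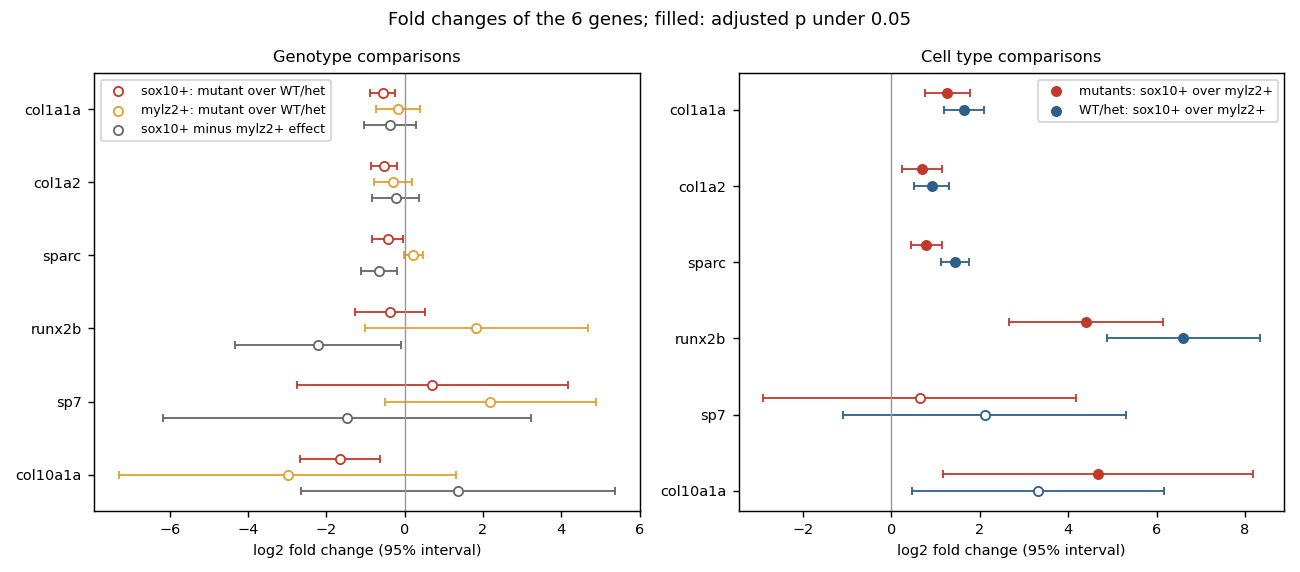
Log2 fold changes of the 6 genes (horizontal axis) with 95% intervals from edgeR, filled where the adjusted p was under 0.05. At left, mutant over wild-type/heterozygous in sox10+ cells (red) and mylz2+ cells (yellow) and the difference of these effects (grey), none of which passed; at right, sox10+ over mylz2+ cells in mutants (red, 5 of 6 passed) and in wild-type/heterozygous samples (blue, 4 of 6 passed).

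Levels also differed between the cell types. In mutants, 5 of the 6 genes were higher in sox10+ than in mylz2+ cells, where 33.3% of all genes were called, 16.3% higher and 17% lower. In wild-type/heterozygous samples 4 of the 6 were higher, where 42.1% of all genes were called, 21.7% higher and 20.5% lower. In each genotype the sox10+ and mylz2+ values were fully apart for 5 of the 6 genes, while 52.8% of all genes were so in mutants and 42.6% in wild-type/heterozygous samples. These levels come from scaling over all 14 libraries, and sorted cell numbers differed between the cell types (7000 and 1500 per sample). Library totals alone gave larger differences, with log2 fold changes of 2.21 for *col1a1a*, 1.64 for *col1a2* and 1.72 for *sparc* in mutants and of 2.83, 2.11 and 2.63 in wild-type/heterozygous samples. That scaling put the median of all genes at 1.03 in mutants and 1.41 in wild-type/heterozygous samples, against 0.11 and 0.21 with TMM. It made 81.7% of the calls in mutants and 84.5% of those in wild-type/heterozygous samples higher in sox10+ cells, where TMM gave 49% and 51.4%.

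*col1a1a* had 741 ± 56.2 CPM in sox10+ mutants and 309 ± 81.9 CPM in mylz2+ mutants (SD, n = 3 each), and 1100 ± 89.4 CPM in sox10+ and 351 ± 104 CPM in mylz2+ wild-type/heterozygous samples (SD, n = 4 each), on the scale of 14 libraries. It was 2.4-fold higher in sox10+ than in mylz2+ cells of mutants (log2 1.26 ± 0.24 SE, adjusted p = 0.00075) and 3.12-fold higher in those of wild-type/heterozygous samples (adjusted p = 1.28e-05). Ordered by level, sox10+ wild-type/heterozygous samples came first, then sox10+ mutants, then mylz2+ cells, whose genotypes lay within 1 SD of each other.

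*col1a2* followed the same order, with 917 ± 71.2 CPM in sox10+ mutants and 566 ± 133 CPM in mylz2+ mutants. In wild-type/heterozygous samples it had 1330 ± 128 CPM in sox10+ and 702 ± 174 CPM in mylz2+ cells. The cell type ratio was smaller than for its partner chain, 1.62-fold in mutants (adjusted p = 0.0203) and 1.89-fold in wild-type/heterozygous samples (adjusted p = 0.000905). The call in mutants was lost without sox10+ mutant replicate 1 (adjusted p = 0.056), sox10+ mutant replicate 3 (adjusted p = 0.0636) or mylz2+ mutant replicate 3 (adjusted p = 0.0867).

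*sparc* was 1.74-fold higher in sox10+ than in mylz2+ cells of mutants (935 ± 85 and 539 ± 43.9 CPM, adjusted p = 0.00148) and 2.72-fold higher in those of wild-type/heterozygous samples (1270 ± 256 and 466 ± 29.3 CPM, adjusted p = 1.03e-06). It was the gene with the narrowest spread in muscle cells, with a CV of 8.12% in mutants and 6.24% in wild-type/heterozygous samples. *sparc* was also abundant there, with at least 17526 counts in every mylz2+ library.

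*runx2b* was abundant in sox10+ cells relative to muscle cells. It had 14.8 ± 4.74 CPM in sox10+ and 0.69 ± 0.52 CPM in mylz2+ mutants (21.1-fold higher, adjusted p = 0.00063), and 19.1 ± 9.31 and 0.20 ± 0.16 CPM in sox10+ and mylz2+ wild-type/heterozygous samples (97.6-fold higher, adjusted p = 8.3e-06). The mylz2+ values rest on 0 to 115 counts, so these ratios depend on few reads.

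*col10a1a* had 148 ± 58.1 CPM in sox10+ and 5.77 ± 7.01 CPM in mylz2+ mutants, a 25.5-fold fitted ratio with an adjusted p of 0.0427. In wild-type/heterozygous samples it had 459 ± 261 CPM in sox10+ and 46.3 ± 38.2 CPM in mylz2+ cells, a ratio of 9.9 that missed the threshold (adjusted p = 0.0607) although the libraries did not overlap. In wild-type/heterozygous samples it passed in DESeq2 (adjusted p = 0.0277), on library totals (log2 4.55, adjusted p = 0.0146), in edgeR without robust dispersions (adjusted p = 0.0343) and without mylz2+ mutant replicate 1 (adjusted p = 0.0223). The call in mutants was lost in 9 of the 14 fits that left out 1 library, with adjusted p of 0.0208 to 0.135 over all 14, and it was kept without sox10+ wild-type/heterozygous replicate 1 or 4, mylz2+ wild-type/heterozygous replicate 2 or 4, or mylz2+ mutant replicate 3. *sp7* was the exception, with 2.39 ± 2.09 CPM in sox10+ and 1.53 ± 0.59 CPM in mylz2+ mutants (adjusted p = 0.813), and 1.46 ± 0.97 and 0.34 ± 0.42 CPM in sox10+ and mylz2+ wild-type/heterozygous samples (adjusted p = 0.284).

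Ratios within a library do not depend on its scaling. The counts of *col1a1a* per count of *col1a2*, not corrected for transcript length, were 0.853, 0.723 and 0.855 in sox10+ mutants and 0.523, 0.534 and 0.572 in mylz2+ mutants. They were 0.82, 0.858, 0.778 and 0.856 in sox10+ wild-type/heterozygous samples and 0.555, 0.466, 0.48 and 0.481 in mylz2+ wild-type/heterozygous samples. The sox10+ libraries thus lay between 0.723 and 0.858 and the mylz2+ libraries between 0.466 and 0.572, without overlap. The difference of sox10+ minus mylz2+ was 0.267 in mutants (exact two-sided permutation p = 0.1, the smallest that 3 against 3 samples allow) and 0.332 in wild-type/heterozygous samples (exact permutation p = 0.0286, the smallest for 4 against 4). Adjusted over the 8 such tests made, chosen after the values were seen, these were 0.16 and 0.114.

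The genotypes did not differ in this ratio beyond the replicate spread, with means of 0.81 ± 0.076 in sox10+ mutants and 0.828 ± 0.038 in sox10+ wild-type/heterozygous samples (exact permutation p = 0.571, adjusted 0.571), and 0.543 ± 0.026 in mylz2+ mutants and 0.496 ± 0.04 in mylz2+ wild-type/heterozygous samples (exact permutation p = 0.171, adjusted 0.195). The small difference in sox10+ cells, -0.0177, was 0.026 without mutant replicate 3. Counts of *sparc* per *col1a2* count ranged more widely, from 0.863 to 1.18 in sox10+ mutants and 0.71 to 1.39 in sox10+ wild-type/heterozygous samples.

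Together the 6 genes took 0.398% to 0.449% of the counts of sox10+ libraries labelled mutant and 0.509% to 0.633% of those of sox10+ wild-type/heterozygous libraries. The mutants lay wholly below (exact permutation p = 0.0571, adjusted 0.152), and 0.0571 is the smallest two-sided p that this exact test allows for 3 against 4 samples. In mylz2+ cells the shares were 0.102% to 0.121% in mutants and 0.0697% to 0.112% in wild-type/heterozygous samples, which overlapped (exact permutation p = 0.171, adjusted 0.195). These shares are levels on library totals. With TMM the 6 genes summed to 797 to 1140 CPM in mylz2+ mutants and 866 to 1210 CPM in mylz2+ wild-type/heterozygous samples. In sox10+ cells the TMM sums were 3960 to 4130 CPM in mutants and 5590 to 6880 CPM in wild-type/heterozygous samples.

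**Figure D3:**
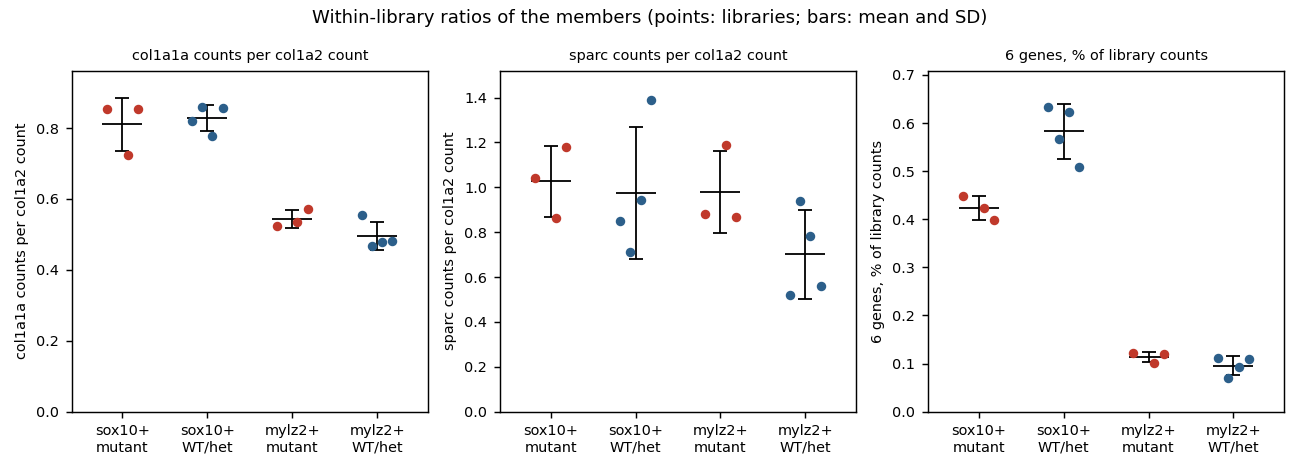
Counts of *col1a1a* per count of *col1a2* (left), counts of *sparc* per count of *col1a2* (middle) and the share of all counts taken by the 6 genes in percent (right), per library (points), with black bars for the mean and SD of each group. The *col1a1a* ratio was 0.723 to 0.858 in all sox10+ libraries and 0.466 to 0.572 in all mylz2+ libraries, while the genotypes overlapped within each cell type.

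The collagen chains varied together. On the log2(CPM + 1) scale, Pearson's r between *col1a1a* and *col1a2* was 0.965 over the 14 libraries, 0.955 over the 7 sox10+ and 0.96 over the 7 mylz2+ libraries. The 14 libraries fall into separate cell types, and genes of a library share its depth and cell mixture, so these values only describe the samples. *sparc* followed *col1a1a* over all 14 (r = 0.894) but less within sox10+ cells (r = 0.534) and not within mylz2+ cells (r = -0.0195). Within mylz2+ cells *sparc* was closest to *sp7* (r = 0.93), the pair whose genotypes did not overlap there.

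*sp7* and *runx2b*, which act in sequence in osteoblasts, had an r of -0.501 over the 7 sox10+ libraries. In sox10+ mutant replicate 4 there were 2010 *runx2b* counts and 5 *sp7* counts, and in wild-type/heterozygous replicate 4 there were 1605 *runx2b* counts and 0 *sp7* counts. *col10a1a* followed *col1a2* (r = 0.802) and *col1a1a* (r = 0.743) in sox10+ cells, and had an r of -0.088 with *sp7* there.

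Genes most like each member were sought among 14053 genes by Pearson's r on the same scale. Over 14 libraries, *col1a1b* (ENSDARG00000035809), the other copy of the alpha chain gene, was nearest to both *col1a1a* (r = 0.984) and *col1a2* (r = 0.984), and *col1a1a* was the next nearest to *col1a2* (r = 0.965). The nearest to *sparc* was *RCN1* (r = 0.982). The nearest to *runx2b* were *FAM167B* (r = 0.987) and *PXYLP1* (r = 0.986), to *col10a1a* *NFIX* and *CD81* (both r = 0.936), and to *sp7* *CPEB4* (r = 0.836) and *foxi1* (r = 0.82). Over the 7 sox10+ libraries they were *scarb2a* and *mical3b* for *col1a1a* (both r = 0.979), *USP1* (r = 0.992) and *RECK* (r = 0.988) for *col1a2*, and *ACAT1* (r = 0.985) and *IMPACT* (r = 0.983) for *sparc*. For *sp7* they were *cnot3b* (r = 0.974) and *MTERF4* (r = 0.973), for *runx2b* *rap1gap2a* (r = 0.947) and *PRICKLE1* (r = 0.933), and for *col10a1a* *STARD8* (r = 0.997) and si:ch211-161h7.4 (r = 0.978). Names in capitals are those of the reference table, which gives no zebrafish copy letter for these identifiers. With 7 libraries and 14053 genes searched, a high r has no weight of its own.

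*col1a1b* gave the same picture as the collagen members. It had 998, 904 and 919 CPM in sox10+ libraries labelled mutant and 1600, 1520, 1600 and 1040 CPM in sox10+ wild-type/heterozygous libraries, which did not overlap. Its log2 fold change was -0.61 ± 0.18 (SE, adjusted p = 0.0963). *col1a1a* and *col1a1b* are related copies, and how reads shared between them were counted is not given in the sources used here.

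Beyond the members, 19 of 20 listed osteoblast and bone matrix genes were matched, and in sox10+ cells 0 of the 18 tested were called by edgeR, where 1.59% of all genes were called lower and 2.1% higher. At an unadjusted p under 0.05, 4 were lower and 0 higher, against 16.7% of all genes in either direction. DESeq2 called 3 lower, and it called 6.2% of all genes lower. The log2 fold change was positive for 3 of the 18, with a median of -0.58 against -0.018 over all genes tested. The list's most highly expressed genes were *cdh11*, an osteoblast cadherin, with 220 CPM in mutants and 258 CPM in wild-type/heterozygous samples (adjusted p = 0.659), and *enpp1*, which makes pyrophosphate, an inhibitor of mineral formation, with 123 CPM in mutants and 175 CPM in wild-type/heterozygous samples (adjusted p = 0.153).

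The lowest ratio of that list, chosen after its value was seen, was that of *entpd5a*, a gene required for mineralization in zebrafish. It had 2.08, 10.1 and 21.1 CPM in sox10+ libraries labelled mutant and 128, 59.1, 52.6 and 25.9 CPM in sox10+ wild-type/heterozygous libraries. The genotypes did not overlap, and wild-type/heterozygous replicate 1 and mutant replicate 1 were the extremes, as they were for *col10a1a*. Its log2 fold change was -2.58 ± 0.75 (SE, adjusted p = 0.096), and DESeq2 called it (adjusted p = 0.0298). Without mutant replicate 4 it was -3.45, and without wild-type/heterozygous replicate 1 it was -2.04. *bglap* (osteocalcin), a marker of mature osteoblasts, had 0 counts in all 7 sox10+ libraries.

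Partners of type I and type V collagen fibrils were lower for 3 and higher for 1 of 19 genes tested in sox10+ cells, where 1.59% of all genes were called lower and 2.1% higher. At an unadjusted p under 0.05, 9 were lower and 1 higher, against 16.7% of all genes in either direction, and the list median was -0.62. *col5a2b*, a type V collagen chain, had 8.44 CPM in mutants and 26.7 CPM in wild-type/heterozygous samples (log2 -1.66 ± 0.29 SE, adjusted p = 0.0125), and the call was lost without mutant replicate 1 (adjusted p = 0.071), 3 (0.0667) or 4 (0.0538). A *COL12A1* copy (ENSDARG00000078322), a collagen that coats type I fibrils, had 110, 112 and 169 CPM in libraries labelled mutant and 364, 287, 369 and 331 CPM in wild-type/heterozygous ones (log2 -1.37 ± 0.19 SE, adjusted p = 0.00503), and it stayed past the threshold in all 7 fits that left out 1 library. The third, outside the naming rule, was *lum*, the proteoglycan lumican (29.5 CPM in mutants, 68.4 CPM in wild-type/heterozygous samples, adjusted p = 0.0185), lost without mutant replicate 3 (0.0955) or 4 (0.0894). A *BGN* copy (ENSDARG00000002945), for the proteoglycan biglycan, was higher, with 20 CPM in mutants and 7.28 CPM in wild-type/heterozygous samples (adjusted p = 0.0304). Its call was lost without any 1 of the 3 mutant replicates or without wild-type/heterozygous replicate 1 or 2 (adjusted p of 0.0431 to 0.172 over 7 fits). The other *BGN* copy (ENSDARG00000017884) was not called and went the other way, with 9.13 CPM in mutants and 13.9 CPM in wild-type/heterozygous samples.

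The machinery that folds, exports and processes collagen gave 1 call among 28 genes in sox10+ cells, a share near the 3.69% of all genes. Before adjustment, 9 of the 28 were lower at a p under 0.05 and 1 was higher, against 16.7% of all genes in either direction. The list median was -0.22, against -0.018 over all genes tested, and 6 of the 28 log2 fold changes were positive. *loxl2a*, a lysyl oxidase that cross-links collagen, had 72.4 CPM in mutants and 131 CPM in wild-type/heterozygous samples (log2 -0.86 ± 0.18 SE, adjusted p = 0.0283), and this was lost in the fits without 1 library except that without wild-type/heterozygous replicate 4 (adjusted p of 0.0344 to 0.104 over 7 fits), and on library totals (adjusted p = 0.0528). The collagen chaperone *SERPINH1* (ENSDARG00000019949, Hsp47) had 1550, 1540 and 1880 CPM in mutants and 1480, 1130, 1330 and 1540 CPM in wild-type/heterozygous samples, with no call (adjusted p = 0.462). It is named here after its values were seen.

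In mylz2+ cells the same machinery was called higher for 6 and lower for 3 of 28 genes, where 10.8% of all genes were called higher and 11.7% lower, with a list median of 0.31 against 0.01 over all genes. On library totals 12 were higher and 2 lower, with a list median of 0.68 beside the shift of 0.41 of all genes. The largest rises were those of a *BMP1* copy (ENSDARG00000028071), a procollagen C-proteinase, with 2.81 CPM in mutants and 0.533 CPM in wild-type/heterozygous samples (log2 2.40 ± 0.57 SE, adjusted p = 0.0129), and *sec24d*, a coat protein of the vesicles that carry collagen out of the endoplasmic reticulum, with 5.73 CPM in mutants and 1.87 CPM in wild-type/heterozygous samples (log2 1.61 ± 0.41 SE, adjusted p = 0.0181). Without mutant replicate 1 or mutant replicate 3, the calls of *BMP1* (adjusted p of 0.00882 to 0.0724 over 7 fits) and of *sec24d* (0.0155 to 0.0753) were lost. The other *BMP1* copy (ENSDARG00000028053) was not called and went the other way, with 0.0688 CPM in mutants and 1 CPM in wild-type/heterozygous samples.

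Outside the naming rule, *SERPINH1* rose to 266, 292 and 257 CPM in mylz2+ mutants, against 81.7, 95.6, 140 and 100 CPM in wild-type/heterozygous samples (log2 1.38 ± 0.17 SE, adjusted p = 0.00032). *p4ha2*, a subunit of the prolyl hydroxylase that stabilizes the collagen helix, rose to 82.5, 96.4 and 107 CPM in mutants, against 53, 59.7, 53 and 47.3 CPM in wild-type/heterozygous samples (log2 0.84 ± 0.13 SE, adjusted p = 0.0011). Both were past the threshold in every alternative fit run, library totals and each left-out library included. The other rises were *FKBP10* (ENSDARG00000045129, adjusted p = 0.0106) and *ppib* (adjusted p = 0.0108), both prolyl isomerases of the endoplasmic reticulum.

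The falls in that list were *loxl2a*, with 3.01 CPM in mutants and 12.2 CPM in wild-type/heterozygous samples (log2 -2.02 ± 0.37 SE, adjusted p = 0.0031), and *adamts14*, a procollagen N-proteinase, with 5.06 CPM in mutants and 14.3 CPM in wild-type/heterozygous samples (log2 -1.50 ± 0.29 SE, adjusted p = 0.00409). The third was *plod2*, a lysyl hydroxylase of collagen (adjusted p = 0.00523), which was named outside the rule and was lost on library totals (adjusted p = 0.0983).

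Of the osteoblast and bone matrix list, 14 genes were tested in mylz2+ cells, with 1 higher and 3 lower. Among all genes tested there, 10.8% were called higher and 11.7% lower. *msx2b*, a homeobox factor, had 5.26, 4.38 and 6.44 CPM in mutants and 1.34, 1.92, 1.94 and 0.992 CPM in wild-type/heterozygous samples (log2 1.79 ± 0.35 SE, adjusted p = 0.00435). *phex*, an endopeptidase of phosphate control that osteoblasts express, had 77.7, 72.3 and 80 CPM in mutants and 246, 262, 241 and 249 CPM in wild-type/heterozygous samples (log2 -1.70 ± 0.10 SE, adjusted p = 3.27e-05). The *phex* libraries of each genotype lay close together and far from those of the other, and the call held in every alternative run. Scaled within each cell type, *phex* was more abundant in muscle cells than in sox10+ cells. Its mean was 249 CPM in mylz2+ and 50.8 CPM in sox10+ wild-type/heterozygous samples, and 76.7 and 21.6 CPM in the mutants. *spp1* (osteopontin) had 0 counts in all 3 mutants, while wild-type/heterozygous samples averaged 0.509 CPM when scaled by library totals, so it was at least 15.2-fold lower against the mean floor of 3 counts per library (adjusted p = 0.0112). Without wild-type/heterozygous replicate 2, the highest, the bound was 7.79-fold. These bounds are for the group mean, since the wild-type/heterozygous libraries held 10 to 87 counts. The call was lost with the replicate number as a block (adjusted p = 0.0646). The remaining fall was *cdh11* (121 CPM in mutants, 193 CPM in wild-type/heterozygous samples, adjusted p = 0.0331), which was lost on library totals (adjusted p = 0.457) and without mutant replicate 3 or 4 or wild-type/heterozygous replicate 2 or 4 (0.0674 to 0.089).

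Fibril partners were lower for 4 of 19 genes in mylz2+ cells and higher for 0. Of all genes there, 11.7% were called lower and 10.8% higher. At an unadjusted p under 0.05, 5 were lower and 0 higher, against 33.1% of all genes in either direction. DESeq2 also called 4 lower and 0 higher, and it called 14.4% of all genes lower. The list median was -0.30, and it was 0.073 on library totals. The largest falls were those of the *BGN* copy (1.37 CPM in mutants, 5.96 CPM in wild-type/heterozygous samples, log2 -2.12 ± 0.32 SE, adjusted p = 0.00103) and an *FMOD* copy (ENSDARG00000044895), for the proteoglycan fibromodulin (2.93 CPM in mutants, 8.99 CPM in wild-type/heterozygous samples, adjusted p = 0.0412). The *FMOD* groups overlapped, and its call was lost without mutant replicate 1 or 4 or wild-type/heterozygous replicate 1, 3 or 4 (adjusted p of 0.018 to 0.128 over 7 fits). The others were *col14a1a* (adjusted p = 0.00634) and *col5a1* (adjusted p = 0.025), named outside the rule and both lost on library totals (adjusted p = 0.129 and 0.224). The *col5a1* call was also lost without wild-type/heterozygous replicate 1 (adjusted p = 0.0564) or 4 (0.066) or mutant replicate 3 (0.0567). That of *col14a1a* was kept in all 7 fits without 1 library.

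**Figure D4:**
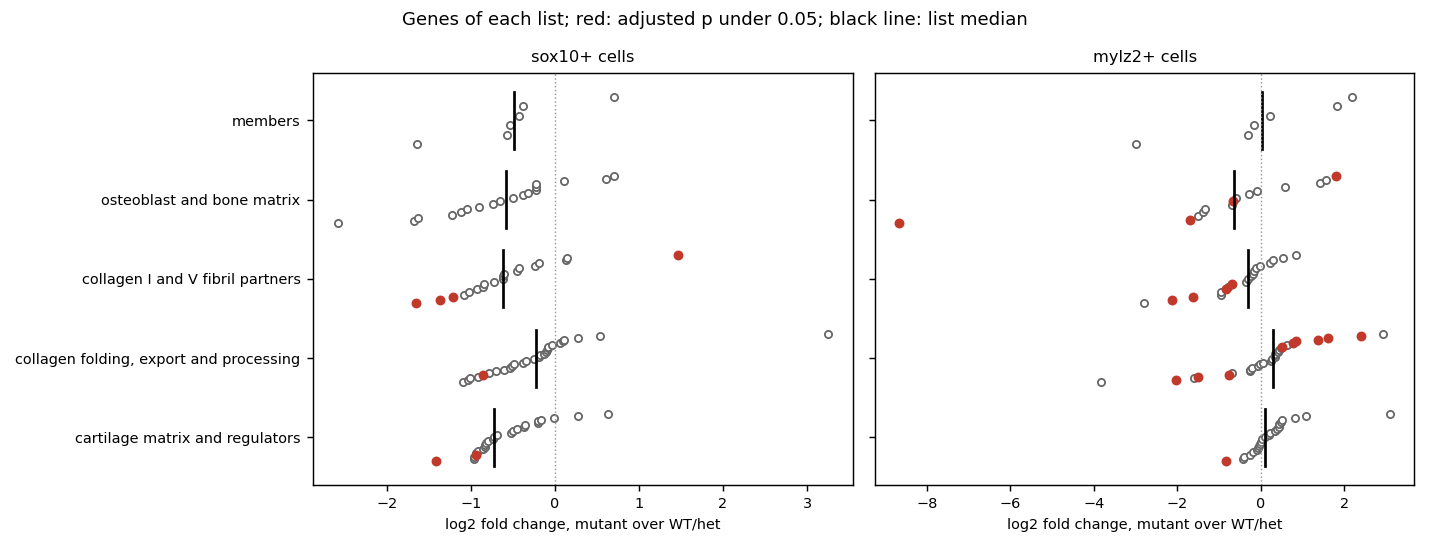
Log2 fold change of mutant over wild-type/heterozygous (horizontal axis) for each tested gene of 5 lists (rows) in sox10+ cells (left) and mylz2+ cells (right), ordered by value within a row. Red points passed an adjusted p of 0.05 and black lines mark list medians, which were -0.48 for the 6 members in sox10+ cells and 0.025 in mylz2+ cells; the point at the far left in mylz2+ cells is *spp1*, whose fitted value is no bound because its mutant counts were 0.

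Markers of other cell types moved with genotype in the sox10+ samples, and their part in the values of the 6 genes was not tested. Among all genes in these samples, edgeR called 1.59% lower and 2.1% higher, and 16.7% had an unadjusted p under 0.05. DESeq2 called 11.3% of all genes, 6.2% lower. Of 25 cartilage genes, 2 were lower in edgeR (*ucmab* and *col11a1b*), 16 were lower and 0 higher at an unadjusted p under 0.05, and DESeq2 called 15 lower, with a median of -0.73. The *ucmab* call was lost without mutant replicate 1 or 3 or wild-type/heterozygous replicate 1 (adjusted p of 0.0277 to 0.131 over 7 fits), and that of *col11a1b* without mutant replicate 3 or 4 (0.00871 to 0.0663). The summed level of the cartilage genes was 94700 to 132000 CPM of library totals in the libraries labelled mutant and 151000 to 215000 CPM in wild-type/heterozygous ones. Of 8 glial genes, 4 were lower (among them *mpz* and *plp1b*), with summed levels of 511 to 678 CPM in mutants and 1770 to 3970 CPM in wild-type/heterozygous samples, and 2 of 7 neuronal genes were lower (324 to 453 CPM in mutants, 594 to 814 CPM in wild-type/heterozygous samples). Unadjusted, 6 glial and 5 neuronal genes were lower, and DESeq2 called 6 and 3. Of these calls, *egr2b* was lost on library totals (adjusted p = 0.0652) and without any 1 library except wild-type/heterozygous replicate 1 (adjusted p of 0.00429 to 0.175), and *elavl4* on library totals (adjusted p = 0.0515) and without any 1 mutant replicate or wild-type/heterozygous replicate 1 or 3 (0.0364 to 0.0998). Of 10 keratinocyte genes, *epcam* was higher and *krt15* and *itga6b* were lower (*itga6b* was lost without any 1 mutant replicate or wild-type/heterozygous replicate 1 or 2, with adjusted p of 0.014 to 0.126), and the summed levels overlapped (798 to 1290 CPM in mutants, 586 to 975 CPM in wild-type/heterozygous samples). Of 10 tendon and fibroblast genes, 7 melanophore, 6 endothelial, 5 blood and 10 muscle genes tested, edgeR called 0. At an unadjusted p under 0.05 these lists held 1, 6, 0, 0 and 2 genes, all lower in mutants, and DESeq2 called 1, 4, 0, 0 and 1. Their median log2 fold changes were 0.045, -1.39, -0.56, 1.73 and -1.47. The melanophore sum was 239 to 520 CPM of library totals in mutants and 355 to 1270 CPM in wild-type/heterozygous samples.

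In mylz2+ cells 7 of 11 muscle genes and 4 of 9 tendon and fibroblast genes were lower. These 4 were *tnmd*, *egr1*, a *THBS4* copy (ENSDARG00000020072) and a *PRRX1* copy (ENSDARG00000033971). The other *THBS4* and *PRRX1* copies were not called. Among all genes in these cells, edgeR called 11.7% lower and 10.8% higher, and 33.1% had an unadjusted p under 0.05. DESeq2 called 27.5% of all genes, 14.4% lower, and edgeR on library totals called 26.8%, 5.5% lower. On library totals 6 muscle genes were lower and 1 higher, and 0 tendon and fibroblast genes were called, with adjusted p of 0.0932 for *tnmd*, 0.17 for *THBS4*, 0.166 for *egr1* and 0.582 for *PRRX1*. When 1 library was left out, the *PRRX1* call was lost in 7 of 7 fits (adjusted p of 0.0565 to 0.117), that of *THBS4* except without wild-type/heterozygous replicate 3 (0.00607 to 0.126) and that of *tnmd* except without wild-type/heterozygous replicate 2 or 4 (0.0419 to 0.128), while *egr1* kept it. The summed tendon and fibroblast level was 425 to 605 CPM of library totals in mutants and 554 to 658 CPM in wild-type/heterozygous samples. The muscle sum was 50200 to 67200 CPM in mutants and 72800 to 77400 CPM in wild-type/heterozygous samples. Of 23 cartilage genes, *sox6* was lower (lost on library totals, adjusted p = 0.104), and of 10 keratinocyte genes 1 was lower. The keratinocyte sum was 795 to 1150 CPM of library totals in mylz2+ mutants and 430 to 838 CPM in mylz2+ wild-type/heterozygous samples. In sox10+ cells this sum was 798 to 1290 CPM in mutants and 586 to 975 CPM in wild-type/heterozygous samples. Of the 6 endothelial, 7 melanophore, 5 glial, 7 neuronal and 5 blood genes tested, edgeR called 0. At an unadjusted p under 0.05 these lists held 0, 0, 1, 1 and 2 genes, and DESeq2 called 0, 0, 1, 0 and 1. The glial and blood genes at that unadjusted p were higher in mutants and the neuronal gene was lower. The list medians were -1.44, 0.61, -0.40, -0.17 and 1.4. The part of these cells in the levels of the 6 genes was not tested.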

How the data were processed

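Per the labels, RNA-Seq reads from sorted cells were processed with STAR and DESeq2 on GRCz11, and the authors deposited a table of raw counts per gene for each cell type. Library strandedness and the counting tool are not given in the sources used here. Counts were analysed with edgeR 4.0.16 in R 4.3.3 (TMM factors, filterByExpr, robust quasi-likelihood fit, Benjamini-Hochberg adjustment over all genes tested, threshold 0.05), although the study used DESeq2. Genotypes were compared within each cell type, and cell types and the interaction in 1 fit of 14 libraries. Alternatives were DESeq2 1.42.0, other scalings and filters, fits with the replicate number as a block, and fits without 1 library. Ratios used exact permutation tests (scipy 1.17.1). The model fit was also run on simulated counts, with larger changes than the genotype changes of the type I collagen genes. Its outcome is not reported here. Of 32520 identifiers, 29201 had a symbol. The members and gene lists were chosen with earlier results of these data known. Named beside the members were, per list, the 2 largest called rises and falls, or else the 2 most abundant genes. Some genes found in the search for like genes are not reported here.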

Additional observations from a re-analysis of the deposited data

Results flagged for a closer look

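*sp7* in sox10+ wild-type/heterozygous replicate 4 had 0 CPM, while the nearest of the other 3 libraries of that group had 2.75 CPM. The gap was 0.936 of the group's whole range, above Dixon's 95% critical value for 4 samples. Of 12 such checks, over 6 genes in the wild-type/heterozygous groups of both cell types, this was the only one past the value, and chance passes about 1 in 20 groups. The same library had 1605 counts of *runx2b*.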

How the results depend on the processing

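For mutant against wild-type/heterozygous in sox10+ cells, 0 members were called by edgeR, 3 by DESeq2, 1 when every library had to hold 10 counts of a gene, and 0 to 3 in the fits that dropped 1 library. All genes called numbered 793, against 2444 in DESeq2, 1310 under that filter of 10 counts, and 321 to 1020 without 1 library. In mylz2+ cells, library totals called 1 member, *sparc*, and 26.8% of all genes. That scaling turned the log2 fold changes of *col1a1a* (0.191), *col1a2* (0.0716) and *col1a1b* (0.121) positive. For the interaction, library totals called 1 member, *sparc*, and 1.61% of all genes. DESeq2 called 1328 genes for the interaction against 356 in edgeR, and leaving out a library gave 179 to 542. In mutants, 3 to 5 members were called between cell types without 1 library, beside 26.6% to 35.7% of all genes. Without 1 library the *psmb1* log2 change in sox10+ cells ranged from -0.0789 to 0.158 (-0.0243 without mutant replicate 1), and the genotype difference in the *col1a1a* to *col1a2* ratio from -0.04 to 0.026. Library totals moved the share of calls that were higher to 71.5% from 56.9% in sox10+ cells, to 79.5% from 48% in mylz2+ cells and to 32.2% from 66.9% for the interaction. The causes were not tested.

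The study states no pairing of samples by replicate number, so the main fits had no replicate block. Correlations of deviations were -0.042 to 0.058 for samples with the same number and -0.073 to 0.08 for the other pairs. With so few samples this check cannot exclude pairing. With the replicate block, 189 genes were called in sox10+ cells, with 0 members, and 3742 in mylz2+ cells, with 1 member (*col1a2*, log2 -0.453, adjusted p = 0.0339). The block removed the sox10+ calls of *col5a2b*, *lum*, *BGN*, *loxl2a*, *col11a1b*, *itga6b*, *krt15*, *egr2b*, *elavl3* and *elavl4*. In mylz2+ cells it removed those of *spp1*, *cdh11*, *FMOD*, *sec24d*, *BMP1*, *THBS4* and *PRRX1*. The sample titled mylz2+ mutant replicate 3 has the column name M2, so its number is in doubt. Numbering by column name gave 3331 genes and 0 members in mylz2+ cells. It removed the calls of *cdh11*, *FMOD*, *ppib*, *BMP1*, *tnmd*, *PRRX1* and the muscle markers *ckmb* and *tnnc2.2*. Dispersions without robust estimation, an alternative chosen after seeing the data, gave 797 genes in sox10+ cells and 4553 in mylz2+ cells.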
